A study of Mus musculus with 6 samples.

Results

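The interferon response genes are the receptors, transcription factors, RNA sensors and induced effector genes through which cells answer interferons, and 39 of them were followed here in the visceral (epididymal) fat of mice fed ND or HFD. They were listed by symbol, with earlier results of these data known although the rule itself uses no measured value, and were found through their Ensembl identifiers in GENCODE M21 on the mouse genome build GRCm38. All 39 were among the 54532 genes listed, and all 39 were among the 15751 genes with enough counts to be tested. By the interferon that is best known to induce them, 25 were type I-like, 9 were interferon gamma-like, and the 4 receptor genes and Irf5 were placed in neither class.

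The study sequenced RNA from the epididymal fat of male C57BL/6J mice, an inbred laboratory strain. The ND group (normal diet, 4.5% fat) and the HFD group (high-fat diet, 60% fat) had 3 samples each. The labels give both groups as untreated, and the diets started at 4 weeks of age and lasted 16 weeks, so that the mice were 20 weeks old. The labels do not state whether each sample came from a single mouse, so the p-values measure the spread between these samples, which may be technical. The samples are called ND 1 to ND 3 and HFD 1 to HFD 3.

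Type I interferons bind the receptor made of Ifnar1 and Ifnar2, and a complex that holds Stat2 and Irf9 then activates genes that carry an interferon-stimulated response element (ISRE). Interferon gamma binds the receptor made of Ifngr1 and Ifngr2, and the signal then acts through the gamma-activated site (GAS) and induces genes of the guanylate-binding proteins and the immunity-related GTPases. In fat, macrophages, lymphocytes, endothelial cells and adipocytes can all respond to interferons, and obesity is known to bring macrophages into the epididymal depot.

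The ISRE letters are shown first, because 16 of the 32 members with a promoter window hold them, some that differed between the diets and some that did not pass the test. A RefSeq promoter window of 300 bases (250 before to 50 after the start, build GRCm38.p6) was found for 32 of the 39 members, and Dhx58, Iigp1, Mx1, Mx2, Oas2, Rtp4 and Usp18 had none in the table used. The ISRE was searched as GAAANNGAAA on both strands, the GAS as TTCNNNGAA and the Ets-Irf composite element (EICE), which Irf8 is known to bind together with an Ets factor, as GGAANNGAAA. Below, the capitals mark ISRE matches, with adjoining or overlapping matches joined. Oas1a and Oas3 are the members with a match that were higher on HFD, Igtp and Gbp7 are the interferon gamma-like members with a match and the smallest adjusted p-values, and Isg15 and Ifit1, both near a fold of 1, were added after their values were seen.
Oas1a, chr5:120907526-120907570, minus strand: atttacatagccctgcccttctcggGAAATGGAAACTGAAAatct
Oas3, chr5:120777700-120777759, minus strand: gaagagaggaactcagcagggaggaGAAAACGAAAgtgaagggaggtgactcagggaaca
Isg15, chr4:156200850-156200921, minus strand: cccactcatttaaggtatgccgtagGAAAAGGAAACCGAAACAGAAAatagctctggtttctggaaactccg
Ifit1, chr19:34640760-34640838, plus strand: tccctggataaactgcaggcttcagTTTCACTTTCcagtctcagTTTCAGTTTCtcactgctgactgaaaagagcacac
Igtp, chr11:58199497-58199555, plus strand: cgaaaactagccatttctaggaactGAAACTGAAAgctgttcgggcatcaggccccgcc
Gbp7, chr3:142530258-142530317, plus strand: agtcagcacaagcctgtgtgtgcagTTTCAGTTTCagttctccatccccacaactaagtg
All 6 stretches lie upstream of the annotated start of their gene. In Igtp the EICE letters overlap the ISRE, and Isg15 and Oas1a each carry ISRE matches that overlap one another.

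At an adjusted p under 0.05, 8 of the 39 members were higher on HFD and 0 were lower. The 8 were the receptor chains Ifnar2 and Ifngr2, the transcription factors Irf5 and Irf8, and the 2'-5'-oligoadenylate synthetase genes Oas1a, Oas2, Oas3 and Oasl1. The other 31, among them Isg15, Ifit1, Mx1, Rsad2, Irf7 and every guanylate-binding protein gene listed, did not pass the test. The test was edgeR's quasi-likelihood test on the raw counts of all 15751 genes, with Benjamini-Hochberg adjustment over all of them. Across all genes tested, 9.85% were called higher and 6.04% lower. At an unadjusted p under 0.05, 10 members were higher and 1, Iigp1, was lower, against 18.7% and 15.3% of all genes tested. DESeq2 called 9 members higher, the same 8 and Dhx58, and 1 lower, Iigp1, against 11.6% and 9.13% of the 17844 genes to which it gave an adjusted p.

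The members did not shift as one group. Their median log2 fold change was -0.02, against 0.01 over all genes tested, with 19 members above 0 and 20 below, and their range was -0.97 to 1.99. The groups did not overlap, with every HFD library above every ND library, for 10 members, against 21.7% of all genes tested. Every HFD library lay below every ND library for 2 members, Iigp1 and Igtp, against 19.1% of all genes tested. The count of members called higher depended on single libraries. It was 1 without ND 1, 0 without ND 2, 5 without ND 3, 3 without HFD 1, 11 without HFD 2 and 6 without HFD 3, while the count over all genes was 337, 376, 607, 380, 2368 and 1352 in the same order.

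**Figure D1:**
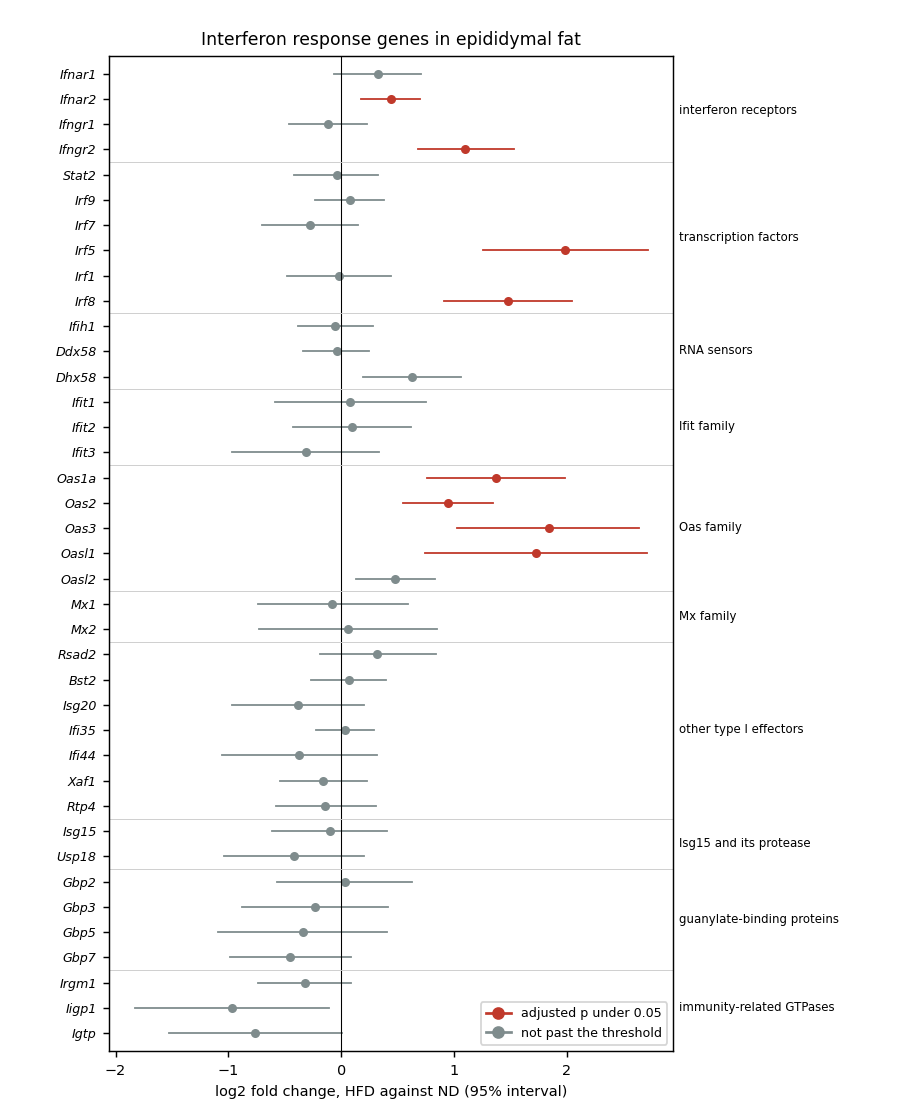
The log2 fold change of HFD against ND (x axis) is plotted for each of the 39 members, grouped by role, with its 95% interval as a line. The 8 members in red passed the test, all to the right of 0, and 4 of them belong to the Oas family. The immunity-related GTPases Iigp1 and Igtp lie farthest to the left, at -0.97 and -0.76.

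The receptor for each interferon has a chain that was higher on HFD, namely Ifnar2 and Ifngr2. Ifngr2, the signalling chain of the interferon gamma receptor, was at 41.6, 39 and 40.9 CPM (counts scaled to the library size) in ND 1 to 3 and at 75.4, 73.4 and 113 CPM in HFD 1 to 3. Both groups were tight except for HFD 3, which stood above the other HFD libraries, and the groups did not overlap. Its log2 fold change was 1.10 ± 0.18 (SE, adjusted p = 0.0119), from 40.5 ± 1.32 to 87.1 ± 22.1 CPM (SD, n = 3). The ligand-binding chain Ifngr1 had a log2 fold change of -0.12 with a 95% interval of -0.46 to 0.23, and its groups overlapped.

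Ifnar2, the chain of the type I receptor that binds interferon most tightly, was at 63.4, 74 and 63.2 CPM on ND against 91, 93 and 88.8 CPM on HFD. The HFD libraries were close to each other and all above ND 2, the highest ND library. Its log2 fold change was small, 0.44 ± 0.11 (SE, adjusted p = 0.0373), from 66.9 ± 6.2 to 90.9 ± 2.12 CPM (SD, n = 3). For its partner Ifnar1 the log2 fold change was 0.33 (95% interval -0.06 to 0.71), and HFD 2 lay within the ND range. Per length, Ifngr1 was the highest of the 4 receptor genes, with a mean of 89.9 FPKM (a level per length) over the 6 libraries, against 23.9 for Ifnar2, 17.1 for Ifngr2 and 15.2 for Ifnar1. When each of the 6 libraries was left out in turn, Ifngr2 passed the test in 4 fits and missed it without ND 1 and ND 2 (adjusted p = 0.0548 and 0.0579). Ifnar2 passed only without HFD 2 and otherwise had an adjusted p of 0.0516 (without HFD 3) to 0.153 (without ND 1).

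Among the 6 transcription factors, Irf5 and Irf8 rose and the factors that form or amplify the type I response did not pass the test. Irf5, which drives inflammatory genes in macrophages, was at 30.7, 23.4 and 23.9 CPM on ND against 97.7, 62.3 and 149 CPM on HFD. It had the largest fold change of all members, with a log2 fold change of 1.99 ± 0.31 (SE, adjusted p = 0.0109), from 26.0 ± 4.05 to 103 ± 43.7 CPM (SD, n = 3). The lowest HFD library, HFD 2, was still above the highest ND library. The exons of Irf5 share 411 bases with Tnpo3 on the opposite strand, and reads from the overlap cannot be told apart without strand, and the value of Tnpo3 was -0.10 on the log2 scale (adjusted p = 0.594).

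Irf8, a factor of the macrophage and dendritic cell lineages that interferon gamma also induces, was at 29.6, 26.6 and 23.6 CPM on ND against 67.5, 53.1 and 102 CPM on HFD. As for Irf5, HFD 3 was the highest library and HFD 2 the lowest of the HFD group, with no overlap. That gave a log2 fold change of 1.48 ± 0.24 (SE, adjusted p = 0.0120), from 26.6 ± 2.97 to 74.1 ± 24.9 CPM (SD, n = 3). Irf5 passed the test in 5 of the 6 fits without 1 library and missed it without ND 2 (adjusted p = 0.0561), and Irf8 passed in 4 and missed it without ND 1 and ND 2 (adjusted p = 0.0508 and 0.0571). The log2 fold changes of the other factors were -0.04 for Stat2 (95% interval -0.42 to 0.33), 0.08 for Irf9 (-0.23 to 0.38), -0.28 for Irf7 (-0.70 to 0.15), the amplifier of type I interferon production, and -0.02 for Irf1 (-0.48 to 0.44).

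In bulk fat, more cells of a type and more RNA per cell cannot be told apart. Most macrophage markers moved in the same direction as these genes. Of 15 macrophage markers, 10 were higher on HFD and 0 were lower, against 9.85% and 6.04% of all genes tested. Their median log2 fold change was 1.32, and none was without counts. Their summed level was 2092 to 2202 CPM on ND against 4675 to 10162 CPM on HFD, highest in HFD 3 and lowest of the HFD group in HFD 2. Irf5, Irf8, Ifngr2, Oas1a and Oasl1 had the same order, but Oas2 and Oas3 were highest in HFD 1 and Ifnar2 in HFD 2. Across all genes tested, HFD 3 was the highest library for 32.7%. HFD 2 was the lowest of the HFD group for 40.2%. Among the 15 markers Adgre1 had a log2 fold change of 2.91, Cd68 of 3.72 and Csf1r of 1.32. Mertk (-0.02) and Cd163 (-0.05) were below 0, and the groups overlapped for 4 of the 15. Of 6 dendritic cell markers, 1 was higher, Itgax, and 0 were lower, against 9.85% and 6.04% of all genes tested. The median log2 fold change of these 6 was 0.08, with 3 above 0 and 3 below. The part of these cells in the rise of any member was not tested.

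The Oas family was the effector group with the most calls. These enzymes make the 2'-5' oligoadenylates that switch on the RNA-degrading enzyme RNase L, and Oasl1, a relative without that activity, is known to restrain the translation of Irf7. All 5 members had every HFD library above every ND library, against 21.7% of all genes tested. Of the 5, 4 rose, against 9.85% of all genes tested. Oas1a, Oas2 and Oas3 lie together on chromosome 5, between 120730333 and 120907521 of GRCm38, all on the minus strand, and Oasl1 and Oasl2 lie between 114896936 and 114937915 of the same chromosome.

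Oas1a was at 10.5, 12.4 and 8.70 CPM on ND against 31.6, 17.7 and 32.4 CPM on HFD. HFD 1 and HFD 3 were high and HFD 2 was intermediate. The log2 fold change of Oas1a was 1.37 ± 0.26 (SE, adjusted p = 0.0181), from 10.5 ± 1.83 to 27.3 ± 8.28 CPM (SD, n = 3). Oas2 was at 8.58, 9.34 and 10.1 CPM on ND against 21.4, 16.1 and 16.7 CPM on HFD. Here HFD 1 was the highest library, and the HFD group was tighter than for Oas1a. For Oas2 the log2 fold change was 0.95 ± 0.17 (SE, adjusted p = 0.0140), from 9.34 ± 0.757 to 18 ± 2.89 CPM (SD, n = 3).

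Oas3 was low, at 1.30, 1.10 and 1.60 CPM on ND against 5.79, 3.19 and 5.36 CPM on HFD. Its pattern was that of Oas1a, with HFD 1 and HFD 3 high and HFD 2 between them and ND. The log2 fold change was 1.84 ± 0.34 (SE, adjusted p = 0.0161), from 1.33 ± 0.251 to 4.78 ± 1.39 CPM (SD, n = 3). Oasl1 was at 3.99, 3.25 and 3.80 CPM on ND against 13.2, 5.42 and 18 CPM on HFD, so that HFD 2 was only slightly above the ND libraries. Its log2 fold change was 1.73 ± 0.42 (SE, adjusted p = 0.0344), from 3.68 ± 0.387 to 12.2 ± 6.34 CPM (SD, n = 3). Oasl2, a related gene in the same cluster as Oasl1, was at 25.3 to 28.2 CPM on ND against 32.9 to 45.0 CPM on HFD, a log2 fold change of 0.48 (95% interval 0.13 to 0.83) that did not pass the test (adjusted p = 0.0684).

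In the 6 fits that each left out 1 library, the log2 fold changes of these 4 genes were between 0.78 and 2.08, but the calls depended on the library. Oas2 and Oas3 passed without ND 3, HFD 2 or HFD 3 and missed the threshold without ND 1, ND 2 or HFD 1 (adjusted p of 0.0588 to 0.0738 for Oas2 and 0.0655 to 0.0829 for Oas3). Oas1a passed without HFD 2 or HFD 3 and Oasl1 only without HFD 2, with an adjusted p of 0.0571 to 0.0801 and 0.0608 to 0.12 in their other fits. Outside the members, Oas1b and Oas1c did not pass the test and their groups overlapped. Their log2 fold changes were 0.30 and 0.36 (adjusted p = 0.529 and 0.4). Oas1g, also outside the members and a close relative of Oas1a, rose by 1.48 on the log2 scale (adjusted p = 0.0172). How reads that fit both genes were counted is not given in the sources used here, so the split between Oas1a and Oas1g is uncertain.

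**Figure D2:**
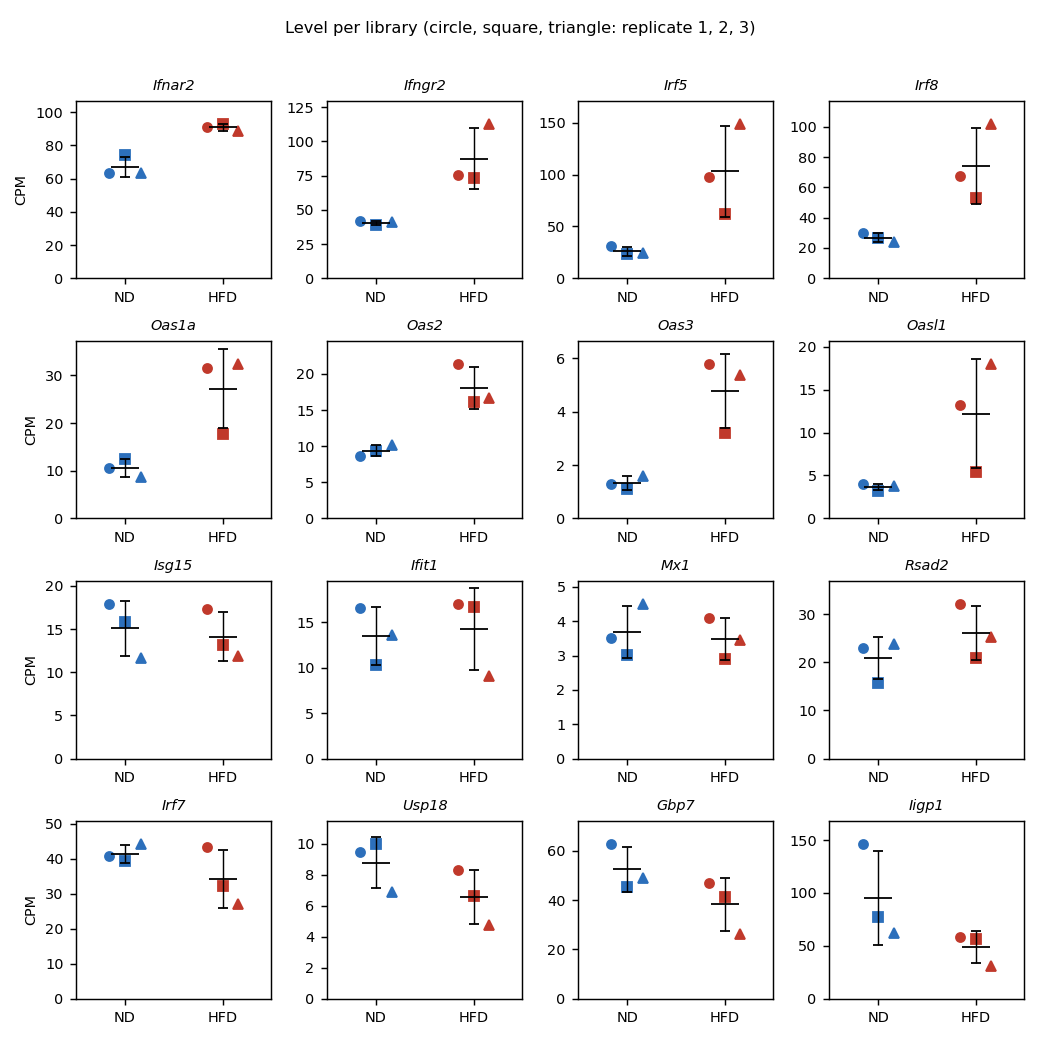
The level in CPM (y axis, from 0) is shown for each library of the 8 members that passed the test (upper 2 rows) and of 8 that did not (lower 2 rows), with the mean and SD as a black bar. In the upper rows every HFD point is above every ND point, for example 53.1 to 102 CPM against 23.6 to 29.6 CPM for Irf8. In the lower rows the points of the 2 diets overlap except for Iigp1.

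The 3 RNA sensors detect viral RNA in the cytoplasm, and interferon raises all of them. Dhx58, which encodes LGP2, was at 10, 11.3 and 7.75 CPM on ND against 16.1, 13.6 and 15.3 CPM on HFD. The groups did not overlap, but its log2 fold change of 0.63 ± 0.19 (SE, adjusted p = 0.0584) did not pass the test, from 9.70 ± 1.81 to 15 ± 1.25 CPM (SD, n = 3). The sensors that signal to interferon production, Ifih1 (MDA5) and Ddx58 (RIG-I), had log2 fold changes of -0.05 (95% interval -0.38 to 0.28) and -0.04 (-0.34 to 0.25).

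No Ifit gene, Mx gene or other type I effector among the members passed the test. The products of the 3 Ifit genes bind viral RNA, and their log2 fold changes were 0.08 for Ifit1 (95% interval -0.59 to 0.75), 0.10 for Ifit2 (-0.43 to 0.62) and -0.31 for Ifit3 (-0.97 to 0.34). Ifit3 has a near-identical copy, Ifit3b, and its counts are uncertain for that reason. Mx1 and Mx2, dynamin-like antiviral GTPases, were low, at 2.89 to 4.5 and 1.80 to 3.35 CPM over the 6 libraries, with log2 fold changes of -0.08 and 0.06. C57BL/6 mice are known to carry a defective Mx1 allele, and GENCODE M21 lists Mx2 as a polymorphic pseudogene.

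Of the 7 other type I effectors none passed the test, and their groups overlapped. Rsad2, which encodes viperin, had the highest log2 fold change among them, 0.32 (95% interval -0.19 to 0.84), and Isg20, an RNA exonuclease, the lowest, -0.38 (-0.97 to 0.20). The membrane tether Bst2, which had the highest level per length of all 39 members (113 FPKM over the 6 libraries), was at 0.07 (-0.27 to 0.40). Ifi35 was at 0.03, Xaf1, which promotes cell death, at -0.16, Rtp4, a receptor transport protein, at -0.14 and Ifi44 at -0.37 on the same log2 scale. Exons of Rtp4 share 296 bases with Gm45338 on the same strand, a transcript with few counts and a value of -3.76 on the log2 scale (adjusted p = 0.0431).

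Isg15, the ubiquitin-like protein that is among the most inducible interferon targets, was at 11.6 to 17.9 CPM on ND against 11.9 to 17.3 CPM on HFD. The groups covered the same range, and its log2 fold change was -0.10 with a 95% interval of -0.61 to 0.41. Usp18, the protease that removes Isg15 from proteins and restrains type I receptor signalling, was at 9.50, 9.98 and 6.90 CPM on ND against 8.31, 6.62 and 4.78 CPM on HFD. HFD 1 lay within the ND range, and the log2 fold change of -0.42 ± 0.26 (SE, adjusted p = 0.306) was not past the threshold, from 8.79 ± 1.66 to 6.57 ± 1.76 CPM (SD, n = 3).

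Over the 25 type I-like members, edgeR called 4 higher and 0 lower, against 9.85% and 6.04% of all genes tested. At an unadjusted p under 0.05 the counts were 6 and 0, against 18.7% and 15.3%. DESeq2 called 5 and 0, against 11.6% and 9.13% of the genes to which it gave an adjusted p. All 4 called by edgeR were of the Oas family. The median log2 fold change of the class was 0.03, and 13 of the 25 were above 0. Their summed level was 650, 584 and 569 CPM in ND 1 to 3 and 727, 629 and 557 CPM in HFD 1 to 3, with HFD 3 below every ND library. HFD 3 was the lowest of all 6 libraries for 13 of the 25, among them all 3 Ifit genes, against 28.4% of all genes tested.

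The interferon gamma-like members lay mostly below 0. Of the 9, edgeR called 1 higher, Irf8, and 0 lower, against 9.85% and 6.04% of all genes tested. At an unadjusted p under 0.05 the counts were 1 and 1, against 18.7% and 15.3%. DESeq2 also called 1 higher and 1 lower, against 11.6% and 9.13% of the genes to which it gave an adjusted p. A log2 fold change below 0 was seen for 7 of the 9. The median was -0.32. Their summed level was 642, 414 and 385 CPM on ND against 474, 452 and 360 CPM on HFD, so that ND 1 stood apart and the other libraries of both diets overlapped. The difference between the 9 and the 25 was not tested, since the members were chosen with results of these data known.

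The immunity-related GTPases, which act on vacuoles that hold intracellular pathogens, had the lowest values. Iigp1 was at 146, 77.3 and 62.6 CPM on ND against 58.5, 56.3 and 31.3 CPM on HFD. ND 1 was far above the other ND libraries, and HFD 1 was close to ND 3 although the groups did not overlap. The log2 fold change of Iigp1 was -0.97 ± 0.36 (SE, adjusted p = 0.112), from 95.3 ± 44.5 to 48.7 ± 15.1 CPM (SD, n = 3). Igtp was at 64.1, 33.2 and 31.4 CPM on ND against 27.3, 31.0 and 17.5 CPM on HFD, with a log2 fold change of -0.76 (95% interval -1.53 to 0.01). HFD 2 was just below ND 3. Igtp shares 162 exon bases on the same strand with Irgm2, whose value was -0.77 on the log2 scale (adjusted p = 0.151). The regulatory GTPase Irgm1 was at -0.32 (-0.74 to 0.09).

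The guanylate-binding proteins coat the same vacuoles and bacteria in the cytosol, and none of the 4 passed the test. Gbp7 was at 62.6, 45.4 and 49.1 CPM on ND against 47.0, 41.2 and 26.4 CPM on HFD. HFD 1 lay within the ND range, and HFD 3 was the lowest library. Gbp7 had a log2 fold change of -0.45 ± 0.23 (SE, adjusted p = 0.212), from 52.3 ± 9.05 to 38.2 ± 10.6 CPM (SD, n = 3). The log2 fold changes of the others were 0.03 for Gbp2 (95% interval -0.57 to 0.63), -0.23 for Gbp3 (-0.88 to 0.42) and -0.34 for Gbp5 (-1.09 to 0.41).

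These values depended on ND 1 and HFD 3. ND 1 was the highest of all 6 libraries for 8 of the 9 interferon gamma-like members, which held for 11.6% of all genes tested, and HFD 3 was the lowest for 7 of the 9, against 28.4% of all genes tested. The median log2 fold change of the 9 was -0.03 without ND 1, -0.12 without HFD 3 and -0.41 to -0.46 without ND 2, ND 3 or HFD 1. Without ND 1 the log2 fold change was -0.52 for Iigp1 and -0.36 for Igtp.

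**Figure D3:**
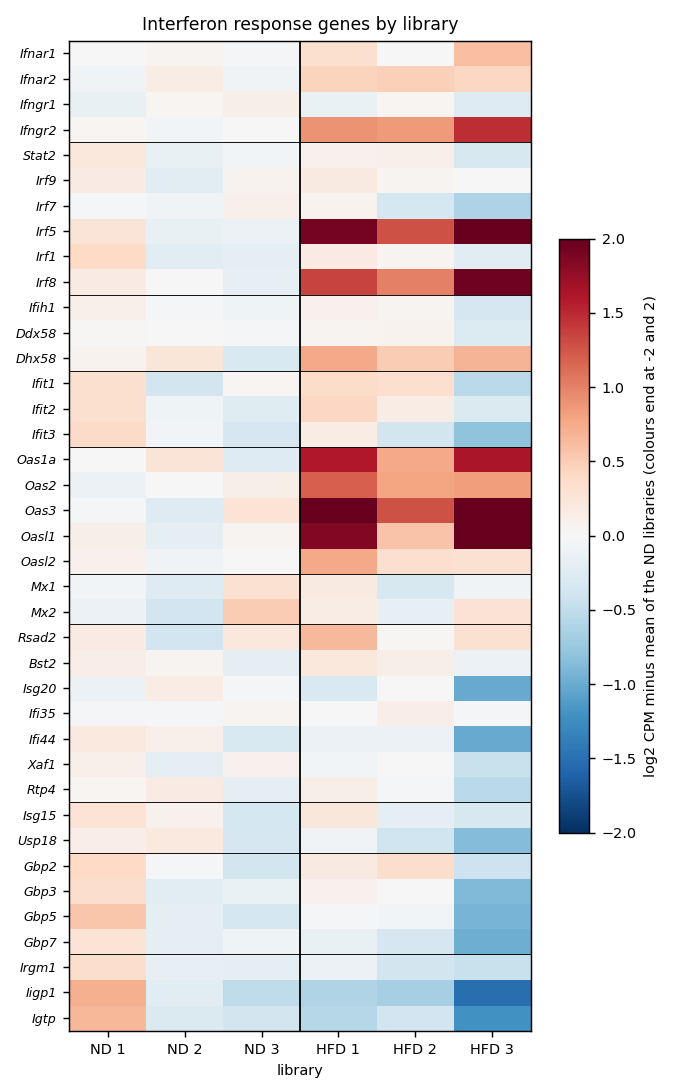
Each row is a member and each column a library, and the colour gives log2 CPM minus the mean of the 3 ND libraries. The Oas family, Irf5, Irf8 and Ifngr2 are red in all HFD columns, while the rows of the guanylate-binding proteins and immunity-related GTPases are red in ND 1 and blue in HFD 3, as in Iigp1 with 146 CPM in ND 1 and 31.3 CPM in HFD 3.

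The markers of cells that make or answer interferon gamma are given beside these values. None of 11 T and NK cell markers passed the test by edgeR, against 9.85% higher and 6.04% lower of all genes tested. An unadjusted p under 0.05 was seen for 0 of them, against 18.7% higher and 15.3% lower. DESeq2 called 0, against 11.6% and 9.13% of the genes to which it gave an adjusted p. Their summed levels were 19.3 to 24.8 CPM on ND against 21.8 to 25.8 CPM on HFD. Of the 11, 6 had a log2 fold change above 0 and 5 below. Every HFD library was above every ND library for 2, Cd3e and Cd8a, against 21.7% of all genes tested. Every HFD library was below for 2, Klrb1c and Gzmb, against 19.1%. The T cell marker Cd3e was at 0.406 to 1.03 CPM on ND against 1.08 to 2.08 CPM on HFD. Its partner chains Cd3d (1.67 to 2.44 against 1.56 to 2.51 CPM) and Cd3g (2.05 to 3.5 against 2.05 to 3.11 CPM) overlapped between the diets. The NK cell marker Ncr1 was at 1.04 to 2.16 and 0.691 to 2.23 CPM. None of 6 endothelial markers was called by edgeR, against the same shares, and all 6 had a log2 fold change below 0. Their summed levels were 961 to 1276 CPM on ND against 544 to 1028 CPM on HFD. HFD 3 was the lowest library for 5 of the 6, against 28.4% of all genes tested. At an unadjusted p under 0.05, 1 of them was lower, against 15.3% of all genes tested. DESeq2 called 1 of the 6 lower, against 9.13% of the genes to which it gave an adjusted p. The part of these cells in the values of the interferon gamma-like members was not tested.

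The plasmacytoid dendritic cell, a main producer of type I interferon, was looked for by its markers. Its defining marker Siglech was at 1.74 to 2.90 CPM on ND against 0.691 to 1.63 CPM on HFD, or -1.03 on the log2 scale (adjusted p = 0.128). Of the 5 tested markers of this cell type, 1 was higher and 0 were lower, against 9.85% and 6.04% of all genes tested. The 1 was Cox6a2, at 0.050 to 0.116 CPM on ND against 0.602 to 2.36 CPM on HFD. It had only 2, 2 and 1 counts on ND, so it passed the filter through its HFD libraries alone. The other 4 had log2 fold changes at or below 0. The summed level of the list, 128 to 136 CPM on ND against 114 to 146 CPM on HFD, was nearly all Tcf4, which other cells also express (123 to 130 against 109 to 140 CPM).

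**Figure D4:**
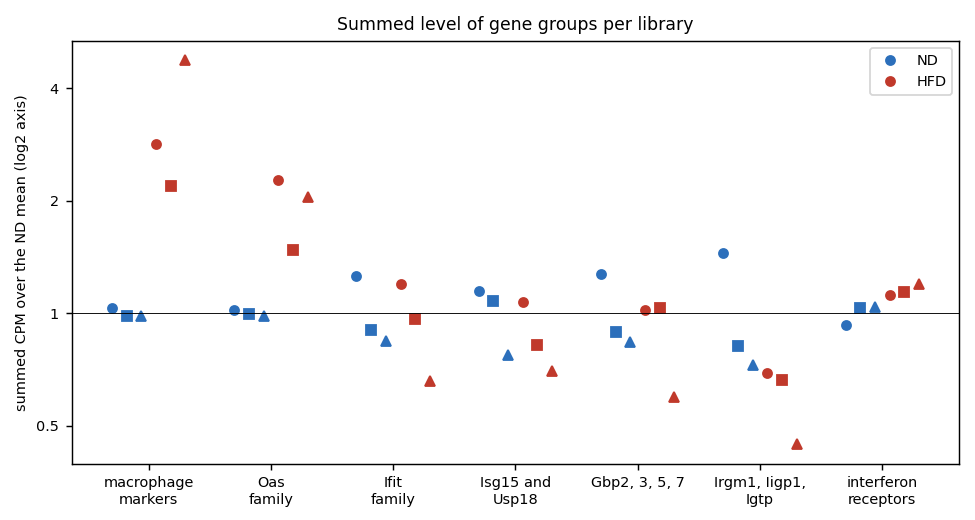
The summed CPM of each group of genes is shown for every library, divided by the mean of the 3 ND libraries, on a log2 axis (circle, square and triangle for replicates 1, 2 and 3). Macrophage markers reach 2.19 to 4.77 on HFD and the Oas family 1.48 to 2.27, whereas the Ifit family lies at 0.66 to 1.2 and the immunity-related GTPases at 0.445 to 0.693. HFD 3 is the highest library for the macrophage markers and the lowest for the Ifit family, Isg15 and Usp18, and both GTPase groups.

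The interferon genes themselves were almost without counts. Of 21 ligand genes listed, 17 had 0 counts in every library, none passed the filter, and all 21 together had 28 counts in the 6 libraries, where 3 counts correspond to 0.150 to 0.181 CPM. A difference in ligand RNA was therefore not detectable at this depth, which covers counting error only.

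Upstream of the members, 4 of 12 genes of sensing and signalling to interferon production rose and 0 fell. Across all genes tested, 9.85% rose and 6.04% fell. Tlr7, the endosomal sensor of single-stranded RNA, rose by 1.72 on the log2 scale (adjusted p = 0.00971). The kinases that activate Irf3 and Irf7 rose by 1.78 (Ikbke, adjusted p = 0.0169) and 0.60 (Tbk1, adjusted p = 0.0302). Cgas, the cytosolic DNA sensor, rose by 1.23 (adjusted p = 0.0372). Among the receptor kinases, Tyk2, the kinase bound to Ifnar1, rose by 0.62 (adjusted p = 0.0361), and Jak1 and Jak2 were not past the threshold (log2 fold changes of 0.45 and -0.14, adjusted p = 0.0763 and 0.374). Of 8 inhibitors tested, 2 rose and 0 fell, the phosphatase Ptpn6 by 1.98 (adjusted p = 0.0125), an enzyme of blood cells, and the nucleotide hydrolase Samhd1 by 0.96 (adjusted p = 0.0143).

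Downstream, the effector genes outside the members were counted in the same classes. Of 41 other type I effectors, 12 rose and 0 fell, against 9.85% and 6.04% of all genes tested. Their median log2 fold change was 0.36, and 35 of the 41 were above 0, against 50.5% of all genes tested. Every HFD library was above every ND library for 19 of them, against 21.7% of all genes tested. The 25 type I-like members had a median of 0.03, with 13 above 0, and the difference from the 41 was not tested. Of the 41, the 3 with the smallest adjusted p were the p200 family gene Ifi207 (1.92, adjusted p = 0.00958), Oas1g, and the p200 family gene Ifi205 (0.88, adjusted p = 0.0216). Of 21 other interferon gamma effectors, 2 rose and 2 fell, against 9.85% and 6.04% of all genes tested. Their median log2 fold change was -0.44, with 16 below 0. The 2 that rose serve antigen presentation, the lysosomal thiol reductase Ifi30 (2.43, adjusted p = 0.0105) and the class II regulator Ciita (0.80, adjusted p = 0.0186). The 2 that fell were Gbp11 (-2.14, adjusted p = 0.0349), at 3.56 CPM in ND 1 but 13.9 and 14.6 CPM in ND 2 and ND 3, and Gm4951 (-1.24, adjusted p = 0.0478), an immunity-related GTPase.

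The promoter letters were found both in members that rose and in members that did not pass the test. An ISRE was found in 16 of the 32 members with a window (50%), against 3.99% of 27025 genes with a window. It was present in 10 of 19 type I-like members (52.6%), in 6 of 8 interferon gamma-like members (75%) and in 0 of the 5 members of neither class. Of the members with a window that were called higher, 2 of 7 had an ISRE, and of those not called 14 of 25 did. The GAS letters were found in 12 of the 32 (37.5%), against 9.55% of all genes, among them Irf8, Irf1, Ifnar2, Oas1a and Igtp. The EICE letters were found in 4 (12.5%), against 3.16% of all genes, namely Gbp5, Ifi44, Igtp and Stat2. A match is a description of these windows and not a sign that a factor was bound there.

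The 6 count totals were 16996896 to 18859320. The adipocyte markers Adipoq and Plin1, which are defining markers of fat cells, were high in every library (1032 to 3833 and 646 to 2063 CPM). The summed level of 15 adipocyte markers was 49765 to 67186 CPM on ND against 28701 to 48210 CPM on HFD. A large part of that difference was Cfd, with a mean of 13634 CPM on ND and 1275 CPM on HFD. Of the 15, edgeR called 3 lower and 0 higher, against 6.04% and 9.85% of all genes tested, and the groups overlapped for 9. ND 3 stood apart, with 224 CPM of epithelial and 95.7 CPM of motile cilium markers against at most 30.9 and 5.76 CPM in the other libraries. Without ND 3, 5 of the members were called higher and 0 lower, and the median log2 fold changes were -0.05 for the type I-like and -0.45 for the interferon gamma-like members.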

How the data were processed

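RNA-Seq libraries from epididymal fat were grouped by the diet given in the sample labels. The authors deposited raw counts per gene (no normalization) and FPKM values, each equal to the count over a length and a library factor (largest deviation 1.06e-06% in the 11492 genes above 50 counts in every library). The paper's methods give paired-end reads mapped to GRCm38 with TopHat and Cufflinks, whereas the submitters' processing notes list HISAT2 2.0.5 and featureCounts 1.5.0-p3 and human build names, and the sources disagree. The strand setting of the counting is not given in the sources used here. Of the 54532 identifiers, 54495 were found in GENCODE M21.

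HFD was compared with ND by edgeR 4.0.16 (R 4.3.3; glmQLFit with robust=TRUE, TMM, filterByExpr, diet as the only factor, Benjamini-Hochberg, threshold 0.05). SEs were derived from the F statistic, and 95% intervals use the test's degrees of freedom. The method was tested on simulated data. Other fits, each changing a single choice, used DESeq2 1.42.0 or limma-voom (limma 3.58.1) as the test, scaled edgeR by the DESeq2 size factors or by the bare library size, dropped the filter or set it to 10 counts in 3 libraries, turned robust off, took the replicate number as a block, or omitted each library. On the FPKM scale limma was run on log2(FPKM + 1) where 3 or more libraries reached 0.5, with a pseudocount of 0.1, and unfiltered. An exact permutation test per gene cannot pass the threshold with 3 samples per diet and was not used.

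The members and all gene lists were chosen with earlier results of these data known. The members were named by role, with full statistics for the 12 with the smallest adjusted p among those that passed without overlap and the first of each role, and from each other pathway list the 3 genes with the smallest adjusted p. Other genes named from counts of 5 or fewer, and Jak1, Jak2, Cd3d, Cd3g, Tcf4, Oas1b and Oas1c, were chosen after their values were seen. The promoter windows are from RefSeq (GRCm38.p6), and motif matches were exact. Some results are not reported here.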

Additional observations from a re-analysis of the deposited data

How the results depend on the processing

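Beside the 8 members called higher and 0 lower, DESeq2 called 1 lower and the replicate block 1 lower, Iigp1 in both, which was also the 1 interferon gamma-like member lower. Limma on log2(FPKM + 1) and on log2(FPKM + 0.1) called 2 type I-like members higher in place of 4, Oas1a and Oas2. Oas3 was not tested in these fits, since fewer than 3 libraries reached 0.5 FPKM (0.823, 0.454 and 0.759 in HFD 1 to 3). Limma on log2(FPKM + 1) without the filter called 1 member higher (Ifngr2), 0 type I-like and 0 interferon gamma-like. Over all genes DESeq2 called 1630 lower, and limma without the filter 394 higher and 255 lower. The log2 fold change of Irf1 was 0.00 and above 0 with limma-voom and with the replicate block. Apart from the filter for Oas3, the causes of these differences were not tested.

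The replicate numbers are not stated to pair the samples. Deviations of same-numbered libraries correlated at -0.0858, -0.0556 and -0.00532, which with 3 libraries per diet cannot show whether they were paired. The replicate block called 6 members higher, without Ifnar2 (adjusted p = 0.0622) and Oas1a (adjusted p = 0.0508). The motif share before the start alone was 43.8%.

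Leaving out 1 library at a time gave 0 to 11 members higher, 0 to 6 type I-like and 0 to 1 interferon gamma-like members higher, 0 to 0 members of either class lower, 337 to 2368 genes higher and 94 to 1572 lower. The median log2 fold change was -0.11 to 0.06 for the type I-like and -0.46 to -0.03 for the interferon gamma-like members. Single members near 0 changed sign, with ranges of -0.14 to 0.07 for Stat2, -0.02 to 0.16 for Irf9, -0.14 to 0.21 for Irf1, -0.16 to 0.06 for Ifih1, -0.13 to 0.05 for Ddx58, -0.10 to 0.30 for Ifit1, -0.11 to 0.27 for Ifit2, -0.24 to 0.06 for Mx1, -0.12 to 0.32 for Mx2, -0.06 to 0.14 for Bst2, -0.02 to 0.05 for Ifi35, -0.31 to 0.01 for Rtp4, -0.30 to 0.04 for Isg15, -0.17 to 0.26 for Gbp2 and -0.42 to 0.01 for Gbp3. Of the single members' values, 409 kept their direction and side of the threshold under the 11 alternatives with all libraries, 13 no longer passed, 3 newly passed and 2 changed sign.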
